A study of Mus musculus with 14 samples.

Results

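The genes described here encode the cornified envelope of the epidermis and the enzymes that assemble it. They were taken from the deposited table by gene symbol: every small proline-rich protein (Sprr) and late cornified envelope (Lce) gene, and the named genes Lor, Ivl, Flg, Flg2, Hrnr, Rptn, Tchh, Tchhl1, Crnn, Krtdap, Casp14, Tgm1, Tgm3 and Tgm5. The rule used no measured value. It found 49 genes of 24035 with a gene name. Flg, which encodes filaggrin, was not analysed here.

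In the outer layers of the epidermis, keratinocytes replace their plasma membrane with an insoluble protein shell, the cornified envelope. Involucrin and the small proline-rich proteins form an early scaffold, loricrin and the late cornified envelope proteins reinforce it, and transglutaminases join them by isopeptide bonds. Most of these structural genes lie together in the epidermal differentiation complex. Sprr2 and Lce3 genes are known to rise in inflamed or wounded skin, while Lor and the Lce1 genes belong to undisturbed, terminally differentiating epidermis.

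The samples were messenger RNA libraries of whole ear from 2 kinds of mice that had both been depleted of Langerhans cells, which are dendritic cells resident in the epidermis. In LC-DTA mice the ablation was long-term. In LC-DTR mice it was short-term, and these mice were sampled 3 days after diphtheria toxin (DT). Both sides of the ear had been painted 6 h earlier with 20 µl of vehicle, which was acetone and olive oil at 4 to 1, or with 1% croton oil, an irritant, in that vehicle. LC-DTR mice gave 3 samples under vehicle and 4 after croton oil, and LC-DTA mice likewise gave 3 and 4. Every group carried an ablation, and ears that kept their Langerhans cells were not analysed here. The sources used here do not give the promoter of each transgene, the age and sex of the mice, or whether LC-DTA mice also received toxin, so genotype and toxin cannot be told apart. Whether each sample was a different animal is not stated in the labels, and the p-values cover only the spread among the samples at hand.

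The values were TPM, transcript abundances that are scaled by gene length and can be set side by side between genes, but keep no sequencing depth. Each sample listed between 13733 and 14332 genes at 1 TPM or more. A gene was tested if it reached 1 TPM in at least 3 samples, and it was called where the limma p-value on log2(TPM + 1), adjusted over all 14693 genes tested, was under 0.05. Differences below are on that log2 scale, which understates the change of genes near 0. Of the 49 members, 44 were tested. Sprr2a1 and Sprr2a2 were listed at 0 in every sample, and 96.3% and 96.5% of the 50-base words in their transcripts also occurred in another gene; how such reads were counted is not given in the sources used here. Sprr2k, Sprr3 and Tchhl1 stayed under the filter, with no sample above 1.57 TPM. Sprr2b, Sprr2j-ps and Crnn were under 1 TPM in all 6 vehicle samples and were tested only through their values after croton oil. Sprr2f and Lce3b reached 1 TPM in fewer than 3 vehicle samples, so they too passed the filter only with their values after croton oil.

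Keratinocytes of the ear were well represented. The 6 suprabasal keratin and desmosome genes summed to 19449.8 to 44482 TPM over the 14 samples. The 6 inner root sheath keratins summed to at most 24.6 TPM, the 6 hair shaft keratins to at most 3.03 TPM and the keratins Krt4 and Krt13 of oral epithelium to at most 2.19 TPM. Within the LC-DTR croton oil group, samples 2 and 3 stood apart from samples 1 and 4 on the first principal component of all genes, at 5.26 and 8.06 against 28.48 and 28.59. Several counts and calls of members that rest on this group are also given without samples 2 and 3, and the others include these samples.

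Summed over all 49 genes, the cornified envelope set took 2.34 to 2.97% of all TPM in LC-DTR vehicle ears and 2.97 to 3.19% in LC-DTR ears after croton oil. In LC-DTA ears it took 1.76 to 1.90% under vehicle and 2.08 to 2.34% after croton oil. The sum of the set was thus lower in LC-DTA than in LC-DTR ears under vehicle without overlap of the samples. Most of that sum came from Krtdap, Lor and the Lce1 genes. Under vehicle the mean sums in LC-DTR and LC-DTA were 31.4 and 52.6 TPM for Sprr2, 642 and 826 for the other Sprr genes, and 57.9 and 76.4 for Lce3. No gene of these 3 groups was called under vehicle. In bulk tissue, fewer keratinocytes and less RNA per keratinocyte cannot be told apart. Fibroblast markers moved against the sum of the set. Their summed level was 1858 to 3555 TPM in LC-DTR vehicle samples and 5181 to 6494 TPM in LC-DTA vehicle samples, and 5 of 5 of these genes were higher in LC-DTA. After croton oil it was 1983 to 2845 and 3244 to 4441 TPM, with 4 of 5 higher. Their part in the genotype difference was not tested.

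After croton oil, 32 of the 44 tested members rose and 2 fell in LC-DTR ears, where 22.1% of all genes tested rose and 29.5% fell. Without LC-DTR croton oil samples 2 and 3, 24 members rose and 2 fell in LC-DTR. The shares of all genes for that count are not given here. In LC-DTA ears 25 members rose and 1 fell, where 24.2% of all genes rose and 34.5% fell. The tested members include Sprr2b, Sprr2f, Sprr2j-ps, Lce3b and Crnn, which passed the filter only with their values after croton oil. Their rises are a description of these samples. The median difference of the members was 0.48 in LC-DTR and 0.52 in LC-DTA, beside -0.06 and -0.09 over all genes tested. A rise in both genotypes was called for 22 members, beside 14.4% of all genes tested. It was called for 20 members, beside 2205 of all 14693 genes tested, without LC-DTR croton oil samples 2 and 3. Between the genotypes under vehicle, no member was higher in LC-DTA and 19 were lower, beside 19.1% and 5.34% of all genes. After croton oil 18 members were higher and 20 lower in LC-DTA, beside 34.3% and 18.0% of all genes in the full fit. Without LC-DTR croton oil samples 2 and 3, 6 members were higher and 20 lower. The shares of all genes without these samples are not given here for that comparison. The 2 genotype comparisons and the 2 croton oil comparisons draw on the same 4 groups, so their values are not independent of each other.

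The split of all genes into higher and lower depended on the scaling. With median ratio scaling, 3909 genes rose and 3670 fell in LC-DTR, 4388 rose and 4112 fell in LC-DTA, 1728 were higher and 1712 lower in LC-DTA under vehicle, and 3686 were higher and 3709 lower after croton oil. With quantile normalization the vehicle comparison gave 1616 higher and 1772 lower genes, and the croton oil comparison of genotypes 3740 and 3730. Relative to 15 keratinocyte reference genes outside the set, of which 8 fell and 4 rose in LC-DTR ears, 4339 genes rose and 2181 fell in LC-DTR, 2219 rose and 6636 fell in LC-DTA, 6248 were higher and 289 lower in LC-DTA under vehicle, and 2926 and 3423 after croton oil. The members' counts with these references were 34 higher and 2 lower in LC-DTR, 23 and 5 in LC-DTA, 4 and 17 between genotypes under vehicle, and 15 and 22 after croton oil.

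**Figure D1:**
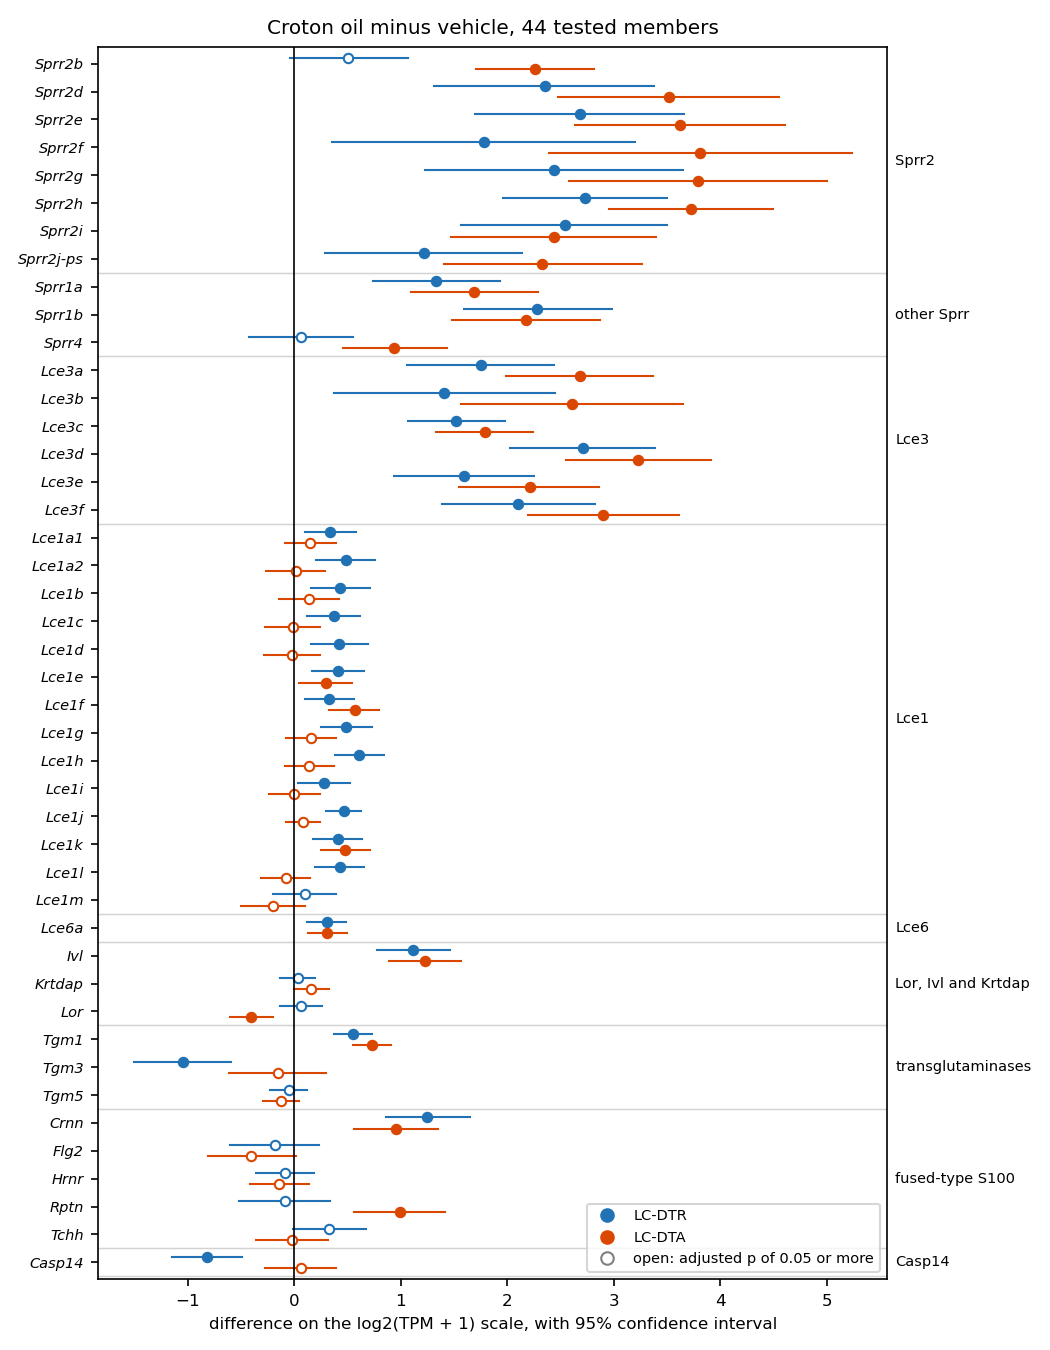
Log2 difference of croton oil minus vehicle, on log2(TPM + 1), for the 44 tested cornified envelope genes grouped by role, with 95% confidence intervals. LC-DTR is blue and LC-DTA orange, and open symbols mark an adjusted p of 0.05 or more: the Sprr2 and Lce3 genes lie far to the right in both genotypes, while Tgm3 and Casp14 are filled symbols left of 0 in LC-DTR and open symbols in LC-DTA.

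The Sprr2 genes encode short proline-rich cross-bridging proteins of the envelope and showed the steepest rise. Of the tested entries, Sprr2g is annotated in GENCODE M21 as a polymorphic pseudogene. Sprr2j-ps is annotated there as protein-coding, but its symbol carries the suffix of a pseudogene. Whether these 2 transcripts yield a protein in these mice is not known here. All 8 tested Sprr2 genes rose in LC-DTA ears, with a median difference of 3.57, and 7 of 8 rose in LC-DTR ears, with a median of 2.39. The counts and medians of the group include Sprr2b, Sprr2f and Sprr2j-ps, which passed the filter only with their values after croton oil. Their calls, here and between genotypes after croton oil, are a description of these samples. The summed Sprr2 level went from 31.4 ± 10.8 TPM (SD, n = 3) to 234 ± 130.0 TPM (SD, n = 4) in LC-DTR and from 52.6 ± 17.6 TPM (SD, n = 3) to 698 ± 259 TPM (SD, n = 4) in LC-DTA. Under vehicle no Sprr2 gene differed between the genotypes by the test, and after croton oil 7 of 8 were higher in LC-DTA, by a median of 1.75.

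The proximal promoters of most Sprr2 genes carried a shared word, which other members also carried. RefSeq promoters of 250 bases before to 50 after the start (GRCm38.p6) matched 46 of the 49 members. The AP-1 motif TGANTCA, searched on both strands, occurred in 7 of 9 matched Sprr2 promoters, beside 7.81% of 32851 promoters of that length. It also stood in 2 of 4 other Sprr promoters and 4 of 6 of the fused-type S100 group described below, and in 16 of the 46 members. Carriers included members that rose, such as Crnn and Ivl, and members called in neither genotype after croton oil, such as Flg2 and Krtdap. In all 7 Sprr2 promoters a match began 193 to 198 bases before the start, and Sprr2k held another at 182 bases. The stretches below, for the 6 that passed the filter, are 31 bases of the plus strand of chromosome 3, with the motif in capitals.
Sprr2b (chr3:92316498-92316528): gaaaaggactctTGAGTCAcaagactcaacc
Sprr2d (chr3:92338935-92338965): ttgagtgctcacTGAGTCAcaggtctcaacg
Sprr2e (chr3:92351938-92351968): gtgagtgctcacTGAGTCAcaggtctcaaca
Sprr2f (chr3:92364978-92365008): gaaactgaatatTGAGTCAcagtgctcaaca
Sprr2h (chr3:92385475-92385505): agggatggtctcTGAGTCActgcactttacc
Sprr2i (chr3:92407786-92407816): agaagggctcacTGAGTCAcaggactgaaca

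Sprr2h, on chromosome 3 from 92385685 to 92387324 (plus strand, GRCm38), was the most abundant gene of the group. In LC-DTR ears it stood at 6.99, 17.5 and 13.8 TPM under vehicle and at 119.7, 53.1, 71.6 and 116 TPM after croton oil. In LC-DTA ears the values were 17.3, 23.4 and 13.5 TPM under vehicle and 294, 362, 233 and 144 TPM after croton oil. Every croton oil sample lay above every vehicle sample, and every LC-DTA croton oil sample lay above every LC-DTR one. The rise was 2.73 ± 0.36 (SE) in LC-DTR (limma adjusted p 5.00e-05) and 3.72 ± 0.36 in LC-DTA (3.36e-06), and after croton oil LC-DTA exceeded LC-DTR by 1.51 ± 0.33 (0.0019).

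Sprr2e, Sprr2d and Sprr2g followed the same order of groups at lower levels. Sprr2e was at 1.60, 2.70 and 1.88 TPM in LC-DTR vehicle samples, at 32.2, 9.60, 10.4 and 34.3 after croton oil, at 4.73, 7.15 and 2.48 in LC-DTA vehicle samples, and at 85.4, 94.5, 70.2 and 34.0 after croton oil. Sprr2d was at 4.24, 7.08 and 6.07 TPM, then 60.2, 14.4, 19.5 and 68.3, in LC-DTR, and at 7.20, 12.8 and 7.02, then 141, 153, 118 and 56.6, in LC-DTA. Sprr2g was at 3.17, 9.10 and 3.50 TPM, then 53.7, 11.4, 20.0 and 65.3, in LC-DTR, and at 9.03, 13.4 and 5.07, then 165, 220.2, 131 and 63.2, in LC-DTA. For all 3 genes croton oil and vehicle samples did not overlap within a genotype, LC-DTR samples 2 and 3 were the lowest of their croton oil group, and LC-DTA sample 4 fell within the LC-DTR range. Their rises lay between 2.35 and 2.68 in LC-DTR and between 3.52 and 3.79 in LC-DTA.

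Sprr2b was close to 0 under vehicle and is given with that limit. It was at 0.0869, 0.230 and 0.457 TPM in LC-DTR vehicle samples, at 1.23, 0.271, 0.250 and 1.86 after croton oil, at 0.341, 0.614 and 0.189 in LC-DTA vehicle samples, and at 6.31, 4.34, 6.83 and 5.10 after croton oil. The LC-DTA croton oil samples stood above all others. The difference of its responses was 1.75 ± 0.36 (limma adjusted p 0.00481). Since the gene was tested only through its high values after croton oil, that call is a description of these samples and supports no difference between genotypes. The 7 other Sprr2 genes had differences of responses from -0.10 to 2.03 that missed the threshold.

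The genotype difference after croton oil leaned on the LC-DTR samples that stood apart. Samples 2 and 3 lay below samples 1 and 4 in 8 of 8 Sprr2 genes and 6 of 6 Lce3 genes, beside 19.7% of all genes. Without them the Sprr2 rise in LC-DTR had a median of 3.24, with 8 of 8 genes called, and the excess of LC-DTA over LC-DTR had a median of 1.01, with 2 of 8 genes called. These were Sprr2b, which was tested only through its values after croton oil, and Sprr2h, at 1.05 ± 0.36 (limma adjusted p 0.0353). In the LC-DTA croton oil group, samples 3 and 4 lay below samples 1 and 2 in 6 of 8 Sprr2 genes, beside 16.1% of all genes. Without LC-DTA croton oil samples 3 and 4 the excess had a median of 2.02, with 7 of 8 called.

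**Figure D2:**
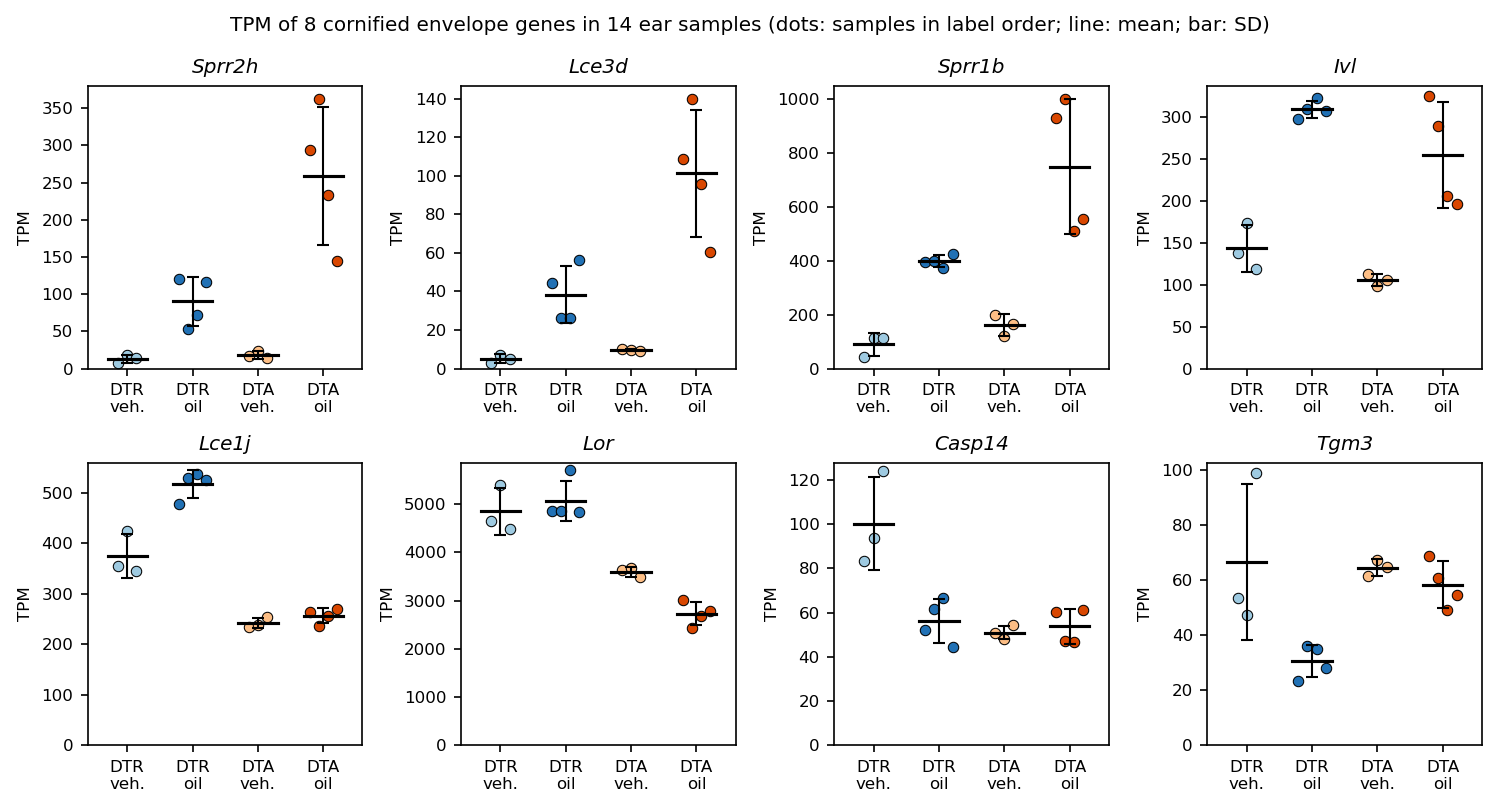
TPM of 8 cornified envelope genes in each of the 14 samples, by group; dots are samples, the line is the mean and the bar the SD. Sprr2h, Lce3d and Sprr1b rose after croton oil and reached their highest levels in LC-DTA, whereas Lce1j and Lor were lower in LC-DTA than in LC-DTR under both treatments.

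Among the other Sprr genes, Sprr1a and Sprr1b encode the cornifins of the early scaffold and were more abundant than any Sprr2 transcript in the group means. Sprr1b was at 41.1, 114 and 113 TPM in LC-DTR vehicle samples and 396, 401, 375 and 425 after croton oil, and at 199.8, 119.6 and 166 in LC-DTA vehicle samples and 929.8, 1001, 512 and 557 after croton oil. The 4 groups did not overlap. It rose by 2.28 ± 0.32 in LC-DTR (limma adjusted p 8.43e-05) and by 2.18 ± 0.32 in LC-DTA (7.79e-05), a difference of responses of -0.11 with a 95% interval from -1.09 to 0.87. Sprr1a rose from 488 ± 141 (SD, n = 3) to 1231 ± 341 TPM (SD, n = 4) in LC-DTR and from 608 ± 106 to 2035 ± 667 TPM in LC-DTA. Sprr4 was 64.1 and 65.2 TPM in the LC-DTR groups and rose from 56.5 to 113 TPM in LC-DTA, by 0.94 ± 0.23 (0.00283). The difference of the Sprr4 responses was 0.88 ± 0.32 (0.0619).

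After croton oil all 3 were called higher in LC-DTA. These calls were not stable to single libraries: leaving out LC-DTR croton oil sample 2 or 3, or LC-DTA croton oil sample 1 or 2, left 1 of 3 called. The adjusted p of Sprr1b rose from 0.0291 to between 0.0513 and 0.0913 without 1 of those 4 samples or without LC-DTR croton oil sample 1, and with LC-DTR croton oil samples 2 and 3 both left out it was 0.117. With both left out, Sprr1a (0.303) and Sprr4 (0.0807) were not called either.

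The Lce3 genes encode late cornified envelope proteins that are known from psoriasis and from repair of the barrier. All 6 rose in both genotypes, by a median of 1.67 in LC-DTR and 2.64 in LC-DTA. Their summed level went from 57.9 ± 19.6 to 204 ± 43.9 TPM in LC-DTR and from 76.4 ± 9.27 to 396 ± 105 TPM in LC-DTA (SD, n = 3 and 4). Lce3b passed the filter only with its values after croton oil, so its calls are a description of these samples. Its rise in LC-DTR (limma adjusted p 0.0254) was missed without any 1 of 4 libraries, with adjusted p from 0.0516 to 0.121. Lce3 transcripts are similar: 12.1 to 49.3% of their 50-base words occurred in another gene, so reads may have been split among them.

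Lce3d, on chromosome 3 from 92957390 to 92958505 (plus strand), changed most. It was at 2.71, 7.25 and 5.06 TPM in LC-DTR vehicle samples and 44.6, 26.2, 26.2 and 56.4 after croton oil, and at 10.1, 9.36 and 8.89 in LC-DTA vehicle samples and 109, 139.8, 95.8 and 60.6 after croton oil. The 4 groups did not overlap. The rise was 2.71 ± 0.32 in LC-DTR (limma adjusted p 2.18e-05) and 3.23 ± 0.32 in LC-DTA (3.92e-06). Lce3c was the most abundant, at 30.2, 40.3 and 60.1 TPM, then 129, 127, 100.2 and 136, in LC-DTR, and at 57.0, 45.0 and 59.7, then 222, 233, 171 and 138, in LC-DTA.

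After croton oil 6 of 6 Lce3 genes were higher in LC-DTA, by a median of 1.30, and Lce3d by 1.39 ± 0.29 (limma adjusted p 0.00141). The call of Lce3c (0.0192) was missed without any 1 of 3 libraries, with adjusted p from 0.0555 to 0.0643. Under vehicle no Lce3 gene was called, with a median difference of 0.39. Without LC-DTR croton oil samples 2 and 3 the median excess was 0.70 and 2 of 6 were called, Lce3a and Lce3d, the latter at 0.94 ± 0.31 (0.0294). No Lce3 gene differed in its response between genotypes by the test, and the 6 differences ran from 0.26 to 1.20.

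Markers of stressed epidermis and of neutrophils rose after croton oil, as the Sprr and Lce3 genes did. The summed level of Krt6a, Krt6b, Krt16 and Krt17 was 501 to 799 TPM in LC-DTR vehicle samples and 1484 to 2247 after croton oil, with 3 of 4 genes higher. In LC-DTA it was 671 to 714 and 2276 to 3245 TPM, with 4 of 4 higher. Neutrophil markers went from 9.15 to 11.4 TPM to 61.4 to 137 in LC-DTR, and from 10.3 to 13.8 to 79.2 to 120.0 in LC-DTA, with 4 of 4 tested genes higher in each. Between the genotypes after croton oil, 3 of 4 stressed epidermis genes were higher in LC-DTA. The neutrophil markers did not follow the Sprr and Lce3 genes there. Their mean sums were 98.8 TPM in LC-DTR and 99.5 TPM in LC-DTA, with 1 of 4 tested genes higher and 1 lower. The part of both marker lists in the rise of the members was not tested.

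The Lce1 genes, late envelope components of undisturbed epidermis, separated the genotypes in the opposite direction. Under vehicle 13 of 14 were lower in LC-DTA, by a median of -0.64, and after croton oil 14 of 14 were lower, by a median of -0.99. The summed Lce1 level was 9877 ± 2066 TPM in LC-DTR vehicle samples and 6482 ± 219 in LC-DTA vehicle samples (SD, n = 3 each), and 12459.8 ± 874 and 6704 ± 457 TPM after croton oil (SD, n = 4 each). Up to 27.1% of the 50-base words of an Lce1 transcript occurred in another gene. Relative to the keratinocyte reference genes 12 were lower under vehicle and 14 after croton oil.

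Lce1j, on chromosome 3 from 92788840 to 92790514 (minus strand), had the clearest separation. It was at 355, 424 and 345 TPM in LC-DTR vehicle samples and 477, 529, 537 and 524 after croton oil, and at 234, 237 and 254 in LC-DTA vehicle samples and 264, 235, 255 and 270.1 after croton oil. All 7 LC-DTA samples lay below all 7 LC-DTR samples. The difference was -0.62 ± 0.081 under vehicle (limma adjusted p 5.70e-04) and -1.01 ± 0.07 after croton oil (7.34e-07). It rose by 0.47 ± 0.076 in LC-DTR (2.30e-04) and by 0.08 ± 0.076 in LC-DTA (0.389), and the difference of the responses was -0.39 ± 0.11 (0.0199).

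Lce1h and Lce1g behaved alike. Lce1h was at 330.3, 440.4 and 313 TPM, then 492, 592, 559 and 542, in LC-DTR, and at 235, 236 and 228, then 278, 247, 228 and 276, in LC-DTA. Lce1g was at 414, 527 and 383 TPM, then 541, 690.4, 626 and 609, in LC-DTR, and at 265, 259.7 and 262, then 308, 277, 258 and 332, in LC-DTA. For both genes the LC-DTA samples lay below the LC-DTR samples and the LC-DTR croton oil samples above the LC-DTR vehicle samples.

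In LC-DTR ears 13 of 14 Lce1 genes rose after croton oil, by a median of 0.42. This rise was small beside the spread of the vehicle samples, in which sample 2 was the highest. Without LC-DTR vehicle sample 3, 7 of 14 were called, and without LC-DTR croton oil samples 2 and 3, which lay above samples 1 and 4 in 12 of 14 Lce1 genes beside 32.4% of all genes, 5 were called: Lce1g, Lce1h, Lce1j, Lce1k and Lce1l. In LC-DTA ears Lce1e, Lce1f and Lce1k rose and the median difference was 0.11. The call of Lce1e (limma adjusted p 0.0394) was missed without any 1 of 6 libraries, LC-DTA vehicle samples 1, 2 and 3 and LC-DTA croton oil samples 1, 2 and 4, with adjusted p from 0.0533 to 0.122. Relative to the keratinocyte reference genes that median was -0.04, with 2 genes higher and 1 lower. The responses of Lce1h (-0.47), Lce1j (-0.39) and Lce1l (-0.51) were lower in LC-DTA by the test of the difference, and those of the 11 others were not called; with LC-DTR croton oil samples 2 and 3 left out, none of the 14 was.

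Lce6a, the single gene of its group, rose by 0.31 ± 0.086 in LC-DTR (limma adjusted p 0.00884) and by 0.31 ± 0.086 in LC-DTA (0.00682), and was lower in LC-DTA by -0.77 under each treatment. The rise in LC-DTR was not called without LC-DTR vehicle sample 1 (0.22, adjusted p 0.0546) or without LC-DTR croton oil samples 2 and 3 (0.27, 0.0536).

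No Lce1 or Lce3 promoter held the AP-1 word: 0 of 13 matched Lce1 promoters and 0 of 6 Lce3 promoters did. The TATA word TATAA on the gene's strand, 20 to 40 bases before the start, stood in 7 of 9 Sprr2, 2 of 13 Lce1 and 0 of 6 Lce3 promoters, beside 3.52% of all promoters. The 200 bases before the start of 1 gene of each group show this contrast, with any AP-1 word and a TATAA in that window in capitals. The genes are on the plus strand (Sprr2h and Lce3d) and the minus strand (Lce1j), and each sequence reads along its gene. Such matches describe the letters and say nothing of binding.
Sprr2h (chr3:92385485-92385684): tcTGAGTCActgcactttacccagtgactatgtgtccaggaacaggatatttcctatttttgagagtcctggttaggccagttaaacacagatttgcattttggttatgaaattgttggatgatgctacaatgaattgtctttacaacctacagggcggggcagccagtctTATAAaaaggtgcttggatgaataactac
Lce3d (chr3:92957190-92957389): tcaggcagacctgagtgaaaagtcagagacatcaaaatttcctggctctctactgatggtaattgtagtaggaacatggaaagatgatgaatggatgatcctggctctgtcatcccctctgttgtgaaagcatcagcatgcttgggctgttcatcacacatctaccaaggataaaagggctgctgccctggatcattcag
Lce1j (chr3:92790515-92790714): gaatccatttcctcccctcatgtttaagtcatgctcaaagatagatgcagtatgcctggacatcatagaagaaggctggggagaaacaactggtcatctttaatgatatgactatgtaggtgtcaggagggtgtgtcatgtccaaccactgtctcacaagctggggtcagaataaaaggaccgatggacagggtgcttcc

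**Figure D3:**
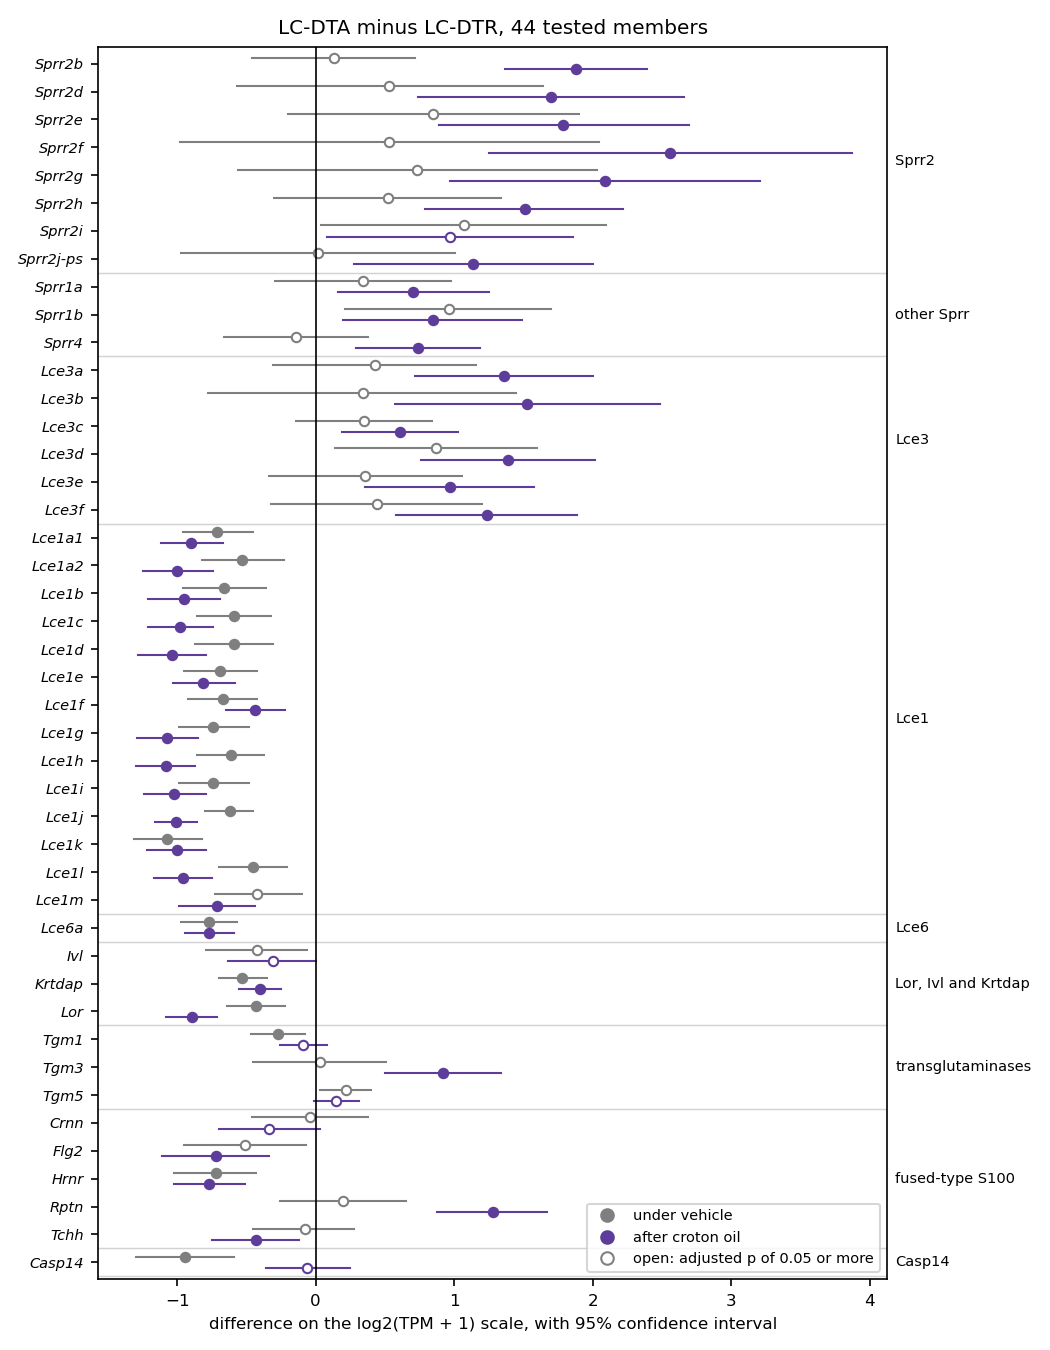
Log2 difference of LC-DTA minus LC-DTR, on log2(TPM + 1), for the 44 tested cornified envelope genes grouped by role, with 95% confidence intervals; grey is vehicle, purple is after croton oil, and open symbols mark an adjusted p of 0.05 or more. The 14 Lce1 genes lie left of 0 under both treatments, and the Sprr2 and Lce3 genes lie right of 0 after croton oil.

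Involucrin, loricrin and the keratinocyte differentiation-associated protein Krtdap are encoded by single genes, and each of their promoters held the AP-1 word. The stretches below read along the gene, with the motif in capitals; Ivl and Lor are on the minus strand of chromosome 3 and Krtdap on the plus strand of chromosome 7.
Ivl (chr3:92573833-92573863): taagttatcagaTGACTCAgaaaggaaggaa
Lor (chr3:92083172-92083202): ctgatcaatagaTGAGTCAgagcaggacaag
Krtdap (chr7:30787812-30787842): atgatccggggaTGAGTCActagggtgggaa

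Ivl, on chromosome 3 from 92570902 to 92573735, encodes involucrin, an early scaffold protein. It was at 138, 174 and 119 TPM in LC-DTR vehicle samples and 298, 309.8, 323 and 308 after croton oil, and at 113, 98.4 and 106 in LC-DTA vehicle samples and 326, 290.0, 206 and 197 after croton oil. Croton oil samples lay above vehicle samples in both genotypes. The rise was 1.12 ± 0.16 in LC-DTR (limma adjusted p 8.64e-05) and 1.23 ± 0.16 in LC-DTA (2.60e-05), and the difference of the responses was 0.11 with a 95% interval from -0.37 to 0.59. The genotypes did not differ by the test under vehicle, at -0.42 ± 0.17 (0.083), or after croton oil, at -0.31 ± 0.15 (0.0873).

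Lor, on chromosome 3 from 92080271 to 92083142, encodes loricrin, the main protein of the mature envelope. It was at 4652, 5408 and 4495 TPM in LC-DTR vehicle samples and 4861, 4864, 5704 and 4839 after croton oil. In LC-DTA it was at 3628, 3666 and 3479 TPM under vehicle and at 3013, 2439.9, 2673 and 2781 after croton oil. The LC-DTR groups overlapped, all LC-DTA samples lay below them, and the LC-DTA croton oil samples lay below the LC-DTA vehicle samples. Lor fell by 0.40 ± 0.092 in LC-DTA (limma adjusted p 0.00203) and differed by 0.06 ± 0.092 in LC-DTR (0.584). The difference of the responses was -0.46 ± 0.13 (0.0209); it was -0.41 ± 0.14 (0.0542) with LC-DTR croton oil samples 2 and 3 left out and missed the threshold (0.0529) with LC-DTA vehicle sample 2 left out. Between genotypes Lor was lower in LC-DTA by -0.43 ± 0.098 under vehicle (0.00717) and by -0.89 ± 0.085 after croton oil (5.42e-06).

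Krtdap, on chromosome 7 from 30787896 to 30791097, encodes a secreted protein of differentiating keratinocytes and was the most abundant member. It was at 8855, 9985 and 9085 TPM, then 9343, 9464, 9769 and 9582, in LC-DTR, and at 6593, 6831 and 5971, then 7253, 6839, 7379 and 7463, in LC-DTA. Every LC-DTA sample lay below every LC-DTR sample. The difference was -0.53 ± 0.082 under vehicle (limma adjusted p 0.00109) and -0.40 ± 0.071 after croton oil (3.97e-04), and croton oil changed it in neither genotype by the test (0.04 in LC-DTR and 0.16 in LC-DTA).

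The transglutaminases that build the envelope moved in different directions. Tgm1, on chromosome 14 from 55700009 to 55713926, encodes the membrane-bound enzyme of the living layers. It was at 155, 170.0 and 147 TPM in LC-DTR vehicle samples and 257, 201, 232 and 235 after croton oil, and at 132, 122 and 136 in LC-DTA vehicle samples and 221, 234, 218 and 194 after croton oil. Croton oil samples lay above vehicle samples in both genotypes. The rise was 0.55 ± 0.085 in LC-DTR (limma adjusted p 1.61e-04) and 0.73 ± 0.085 in LC-DTA (1.18e-05). The lower vehicle level of LC-DTA, -0.27 ± 0.09 (0.0419), missed the threshold when any of 8 libraries was left out, with adjusted p from 0.0515 to 0.172. These were LC-DTR vehicle samples 1 and 2, LC-DTR croton oil samples 3 and 4, LC-DTA vehicle samples 1, 2 and 3, and LC-DTA croton oil sample 3.

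Tgm3, on chromosome 2 from 130012349 to 130050399, encodes a soluble transglutaminase of the upper epidermis and hair follicle. It was at 53.6, 47.3 and 99.1 TPM in LC-DTR vehicle samples and 23.4, 36.2, 34.8 and 28.0 after croton oil, and at 61.5, 67.5 and 64.7 in LC-DTA vehicle samples and 68.8, 60.9, 49.0 and 54.6 after croton oil. The LC-DTR croton oil samples lay below all others. Tgm3 fell by 1.04 ± 0.21 in LC-DTR (limma adjusted p 0.00109) and differed by -0.15 ± 0.21 in LC-DTA (0.55). After croton oil LC-DTA exceeded LC-DTR by 0.92 ± 0.20 (0.00149). Without LC-DTR croton oil samples 2 and 3 the fall was -1.27 ± 0.24 (0.00105) and the excess 1.15 ± 0.23 (0.0021). The difference of the responses was 0.89 ± 0.30 (0.0454), and it missed the threshold, at adjusted p from 0.0577 to 0.0874, without any 1 of 9 libraries: LC-DTR vehicle sample 3, LC-DTR croton oil samples 1 and 4, each LC-DTA vehicle sample, and LC-DTA croton oil samples 1, 2 and 4. Tgm5, on chromosome 2 from 121046111 to 121085841, encodes another epidermal transglutaminase, stayed between 31.3 and 43.5 TPM and was called in no comparison.

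Casp14, on chromosome 10 from 78711991 to 78718294, encodes the caspase of cornifying keratinocytes that takes part in filaggrin breakdown. It was at 83.2, 93.6 and 124 TPM in LC-DTR vehicle samples and 51.9, 61.6, 66.7 and 44.4 after croton oil, and at 50.6, 48.1 and 54.2 in LC-DTA vehicle samples and 60.1, 47.0, 46.5 and 61.2 after croton oil. The LC-DTR vehicle samples lay above all others, which overlapped. Casp14 fell by 0.82 ± 0.15 in LC-DTR (limma adjusted p 6.41e-04) and was lower in LC-DTA under vehicle, at -0.94 ± 0.16 (0.00172). The difference of the responses was 0.89 ± 0.22 (0.0116), and with LC-DTR croton oil samples 2 and 3 left out it was 1.09 ± 0.21 (0.00518).

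The summed levels of hair follicle and keratinocyte markers also fell in LC-DTR ears after croton oil. The 6 inner root sheath keratins summed to 3.53 to 24.6 TPM under vehicle and 1.75 to 2.27 TPM after croton oil, and 2 of 4 tested were lower. The suprabasal list went from 32429 to 44482 TPM down to 19449.8 to 25849.5 TPM, with 4 of 6 genes lower. The basal list went from 14425 to 16236 TPM down to 7765 to 10082 TPM, with 4 of 5 genes lower and 1 of 5 higher. In LC-DTA the suprabasal list was at 29000.0 to 30519 TPM and then 26106 to 30473 TPM, with 1 of 6 higher and 1 of 6 lower. The basal list in LC-DTA went from 13625 to 13799 TPM to 10942 to 12939.6 TPM, with 2 of 5 genes higher and 3 of 5 lower, and the inner root sheath keratins from 3.28 to 15.9 TPM to 2.36 to 4.74 TPM, with 1 of 4 tested lower. Their part in the falls of Tgm3 and Casp14 was not tested.

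The fused-type S100 proteins join calcium-binding domains to long repeats and bind keratin within the cornified cell. Rptn, which encodes repetin, was at 15.4, 12.1 and 12.9 TPM in LC-DTR vehicle samples and 15.6, 12.9, 12.9 and 9.23 after croton oil, and at 19.0, 11.5 and 16.8 in LC-DTA vehicle samples and 36.6, 38.7, 23.1 and 30.5 after croton oil. The LC-DTA croton oil samples lay above all others. Rptn rose by 0.99 ± 0.20 in LC-DTA (limma adjusted p 8.33e-04) and differed by -0.09 ± 0.20 in LC-DTR (0.725). The responses differed by 1.08 ± 0.28 (0.0155).

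Hrnr and Flg2, which encode hornerin and filaggrin-2, were lower in LC-DTA. Hrnr was at 191, 172 and 188 TPM, then 197, 155, 164 and 177, in LC-DTR, and at 100.3, 127 and 107, then 83.4, 88.7, 123 and 114, in LC-DTA. Flg2 was at 358, 276 and 223 TPM, then 221, 268, 251 and 248, in LC-DTR, and at 176, 240.0 and 179, then 116, 129, 151 and 216, in LC-DTA. The Hrnr samples of the genotypes did not overlap, and those of Flg2 overlapped under vehicle. Hrnr was lower by -0.72 ± 0.14 under vehicle (limma adjusted p 0.00279) and by -0.77 ± 0.12 after croton oil (1.51e-04), and Flg2 by -0.72 ± 0.18 after croton oil (0.004). Crnn, which encodes cornulin, went from at most 0.655 TPM under vehicle to between 1.14 and 2.93 TPM after croton oil. Tchh, which encodes trichohyalin of the hair follicle, was at 2.59 to 5.10 TPM over all samples. After croton oil it was lower in LC-DTA by -0.43 ± 0.15 (limma adjusted p 0.0236) and the genotypes did not overlap. That call was missed, at adjusted p from 0.051 to 0.0622, without any 1 of 5 libraries: LC-DTR croton oil samples 1 and 4, and LC-DTA croton oil samples 1, 2 and 3.

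The response to croton oil was compared between genotypes directly for every gene. The difference, LC-DTA response minus LC-DTR response, was called for 8 of 44 members: 4 higher and 4 lower, where 10.5% and 12.6% of all genes were called higher and lower. The share of members is near that background. The higher ones were Sprr2b, which was tested only through its values after croton oil, Rptn, Casp14 and Tgm3, and the lower ones Lce1h, Lce1j, Lce1l and Lor. With median ratio scaling 4 members were higher and 2 lower and 1779 and 1767 of all genes, and relative to the keratinocyte reference genes 3 members were higher and 12 lower and 420 and 5206 of all genes. Without LC-DTR croton oil samples 2 and 3 the 4 higher calls remained and no lower one did. The shares of all genes in that setting are not given here.

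Of the 49 members, 44 lay on chromosome 3 between 92080271 and 93471980 (GRCm38, GENCODE M21), an interval of 1.39 Mb. Ordered along it, Lor comes first, then the Sprr2 genes, Sprr1 genes and Ivl, then the Lce1 and Lce3 genes, and last the fused-type S100 genes. The members lower in LC-DTA under both treatments were 17, beside 3.19% of all genes tested, and the Lce1 block held 13 of them. Without LC-DTR croton oil samples 2 and 3 the count was also 17, beside 3.01% of all genes tested. Lce1m, from 93017810 to 93019060, lies beyond the Lce3 group and was the most abundant Lce1 gene, at 1154 to 2444 TPM. It was the one Lce1 gene not called in LC-DTR after croton oil, at 0.10 ± 0.14 (limma adjusted p 0.586), nor between genotypes under vehicle, at -0.42 ± 0.15 (0.0539).

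**Figure D4:**
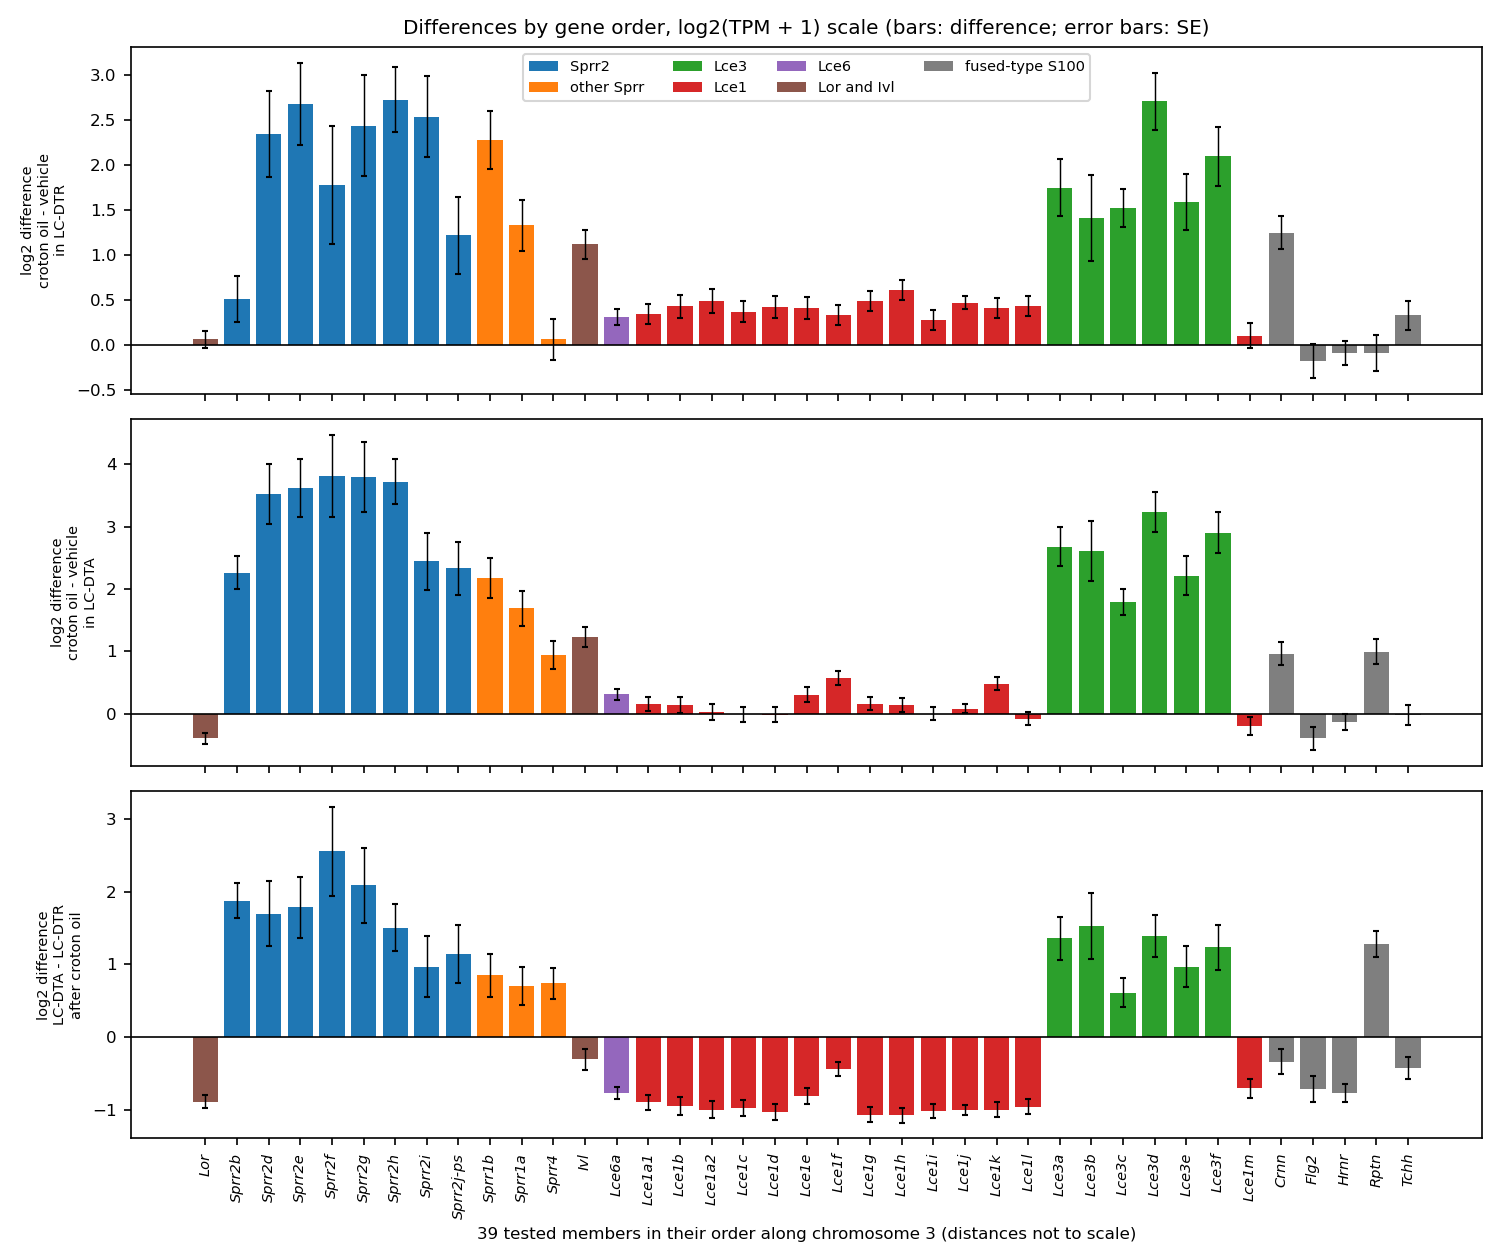
The 39 tested members of the chromosome 3 interval in their order along the chromosome (equally spaced, not to distance), with the log2 difference on log2(TPM + 1) as bars and its standard error as error bars. The panels show croton oil minus vehicle in LC-DTR, the same in LC-DTA, and LC-DTA minus LC-DTR after croton oil; neighbouring Sprr2 and Lce3 genes rise above 0 and the Lce1 block between them lies below 0 in the last panel.

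Other genes of the interval were taken by position and not by the rule. There were 7, of which 5 were tested. Crct1, 2310050C09Rik and Kprp were lower in LC-DTA under both treatments, Crct1 by -0.65 ± 0.12 (limma adjusted p 0.00204) and -0.81 ± 0.10 (3.29e-05). Prr9 averaged 42.1 and 9.32 TPM in LC-DTR vehicle and croton oil samples and 33.0 and 35.5 TPM in LC-DTA. It fell by 1.89 ± 0.36 in LC-DTR (7.18e-04), and the difference of its responses was 1.91 ± 0.51 (0.017). Without LC-DTR croton oil samples 2 and 3 these were -1.96 ± 0.46 (0.0039) and 1.98 ± 0.60 (0.0369).

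Genes outside the rule that serve the same barrier were described from lists by function. Beside the counts of these lists, 22.1% of all genes tested rose and 29.5% fell in LC-DTR, and 24.2% and 34.5% in LC-DTA. In LC-DTA against LC-DTR, 19.1% were higher and 5.34% lower under vehicle, and 34.3% and 18.0% after croton oil. A count near its share is no result about the list. Among 10 further envelope and plaque proteins, 2 rose and 1 fell in LC-DTR, 1 rose and 1 fell in LC-DTA, and 7 were lower in LC-DTA under each treatment. Ppl, which encodes periplakin, was lower by -0.38 ± 0.10 under vehicle (limma adjusted p 0.0172) and by -0.90 ± 0.089 after croton oil (6.95e-06), and Csta1, which encodes a cysteine protease inhibitor, by -0.68 ± 0.091 (6.05e-04) and -0.75 ± 0.079 (1.02e-05). Among 13 genes of the lipid envelope, 8 rose and 1 fell in LC-DTR and 6 rose in LC-DTA, and 7 and 10 were lower in LC-DTA under vehicle and after croton oil. Cers3, the synthase of very long chain ceramides, rose from 68.9 to 147 TPM in LC-DTR and from 66.6 to 145 TPM in LC-DTA, by 1.09 ± 0.09 (1.77e-06) and 1.11 ± 0.09 (1.37e-06).

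Among 8 genes of filaggrin processing and desquamation, 5 rose in LC-DTR, 3 rose and 1 fell in LC-DTA, and 5 and 7 were lower in LC-DTA under vehicle and after croton oil. Klk7, a protease of desquamation, rose from 911 to 1213 TPM in LC-DTR and from 605 to 1071 TPM in LC-DTA. Blmh, a protease of the last steps of filaggrin breakdown, was lower in LC-DTA by -0.86 ± 0.072 under vehicle (limma adjusted p 3.40e-05) and by -0.47 ± 0.062 after croton oil (5.03e-05). Among the other transglutaminases, 1 of 4 tested rose in LC-DTR, and 1 rose and 1 fell in LC-DTA: Tgm2 rose in both and Tgm7 fell from 5.20 to 1.37 TPM in LC-DTA.

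Of 13 tested regulators of cornification, 5 rose and 2 fell in LC-DTR and 6 rose and 4 fell in LC-DTA. Under vehicle 6 were lower in LC-DTA, and after croton oil 2 were higher and 5 lower. Maf, a differentiation factor of keratinocytes, fell by 0.87 ± 0.088 in LC-DTR (limma adjusted p 7.44e-06) and by 0.39 ± 0.088 in LC-DTA (0.00192). Klf4, required for barrier formation, fell from 996 to 559 TPM in LC-DTA, by 0.83 ± 0.089 (6.97e-06), and was 939.8 and 859 TPM in LC-DTR (0.232). Its responses differed by -0.70 ± 0.13 (0.00228). Nfe2l2, the oxidative stress factor known to act on Sprr2 genes in keratinocytes, rose from 66.8 to 102 TPM in LC-DTR and from 70.7 to 148 TPM in LC-DTA.

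Of 7 AP-1 subunits, whose dimers are known to bind the word shown above, 5 rose in LC-DTR, and 4 rose and 2 fell in LC-DTA. Under vehicle 2 were higher in LC-DTA and after croton oil 2 were lower. Fosl1 rose from 2.84 to 16.8 TPM in LC-DTR and from 7.93 to 23.0 TPM in LC-DTA, by 2.23 ± 0.24 (limma adjusted p 1.20e-05) and 1.48 ± 0.24 (1.60e-04). Junb rose from 236 to 614 TPM and from 197 to 507 TPM. Jund fell by 0.95 ± 0.08 in LC-DTA (1.62e-06) and was 191 and 184 TPM in LC-DTR, and its responses differed by -0.90 ± 0.11 (3.38e-04). These are transcript levels of mixed tissue, and the cells that held them were not identified.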

How the data were processed

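The deposited table held TPM values per gene and sample; each column summed to 1000000. The authors' steps named in the submitters' processing notes were cutadapt, HISAT2, Subread and featureCounts with the mm10 build, with no versions or annotation. Per the labels' protocols, RNA was extracted with an RNeasy kit and libraries were made with a stranded mRNA kit. TPM keep no depth, so the depth behind each value is unknown and no counting interval was given. Of 24062 rows, 27 had been turned into dates and were left out.

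From the deposited TPM, log2 values were computed as log2(TPM + 1) and fitted in limma 3.58.1 (R 4.3.3) with 1 mean per group over all 14 samples and a mean-variance trend. P-values were two-sided and adjusted by Benjamini-Hochberg over the 14693 genes with at least 1 TPM in at least 3 samples. The steps were tested on simulated data. Python 3.11.15, pandas 2.3.3, numpy 2.4.6 and matplotlib 3.10.9 made tables and figures. Promoters came from RefSeq (GRCm38.p6); Lce1f, Sprr2g and Sprr2j-ps had no entry. Positions and transcript words came from GENCODE M21.

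Members with values in every sample were those called between 2 groups at least once whose mean reached 5 TPM in any group, in order of lowest p, up to 6 of a class; Lor, Ivl, Tgm1, Tgm3 and Casp14 were always given. Lists of other genes gave up to 3 genes each by lowest p. Sprr2b, Lce3c, Sprr1a, Sprr4, Lce6a, Lce1m, Crnn, Tchh and the neighbours on chromosome 3 were described beside these. The members, lists and left-out libraries were chosen with earlier results of these data known. Alternatives were other pseudocounts, filters, scalings, variance models, sample sets and a replicate block.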

Additional observations from a re-analysis of the deposited data

Results flagged for a closer look

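Among 88 sets of 4 croton oil samples, 1 per tested member and genotype, 2 held a sample far from the other 3 by Dixon's 95% criterion. Lor in LC-DTR croton oil sample 3 was 5704 TPM, and the other 3 samples lay between 4839 and 4864 TPM. Tchh in LC-DTA croton oil sample 4 was 3.59 TPM, and the others lay between 2.96 and 3.05 TPM. Chance alone gives such a gap in about 5% of sets.

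The response to croton oil differed between genotypes by the test of that difference for 8 members, with limma on log2(TPM + 1). The response was higher in LC-DTA for Sprr2b (1.75, adjusted p 0.00481), Casp14 (0.89, 0.0116), Rptn (1.08, 0.0155) and Tgm3 (0.89, 0.0454). Sprr2b was tested only through its high values after croton oil, so its value is a description. It was lower in LC-DTA for Lce1j (-0.39, 0.0199), Lor (-0.46, 0.0209), Lce1l (-0.51, 0.0268) and Lce1h (-0.47, 0.037). Lce1h missed the threshold without any 1 of 10 libraries, with adjusted p from 0.0546 to 0.0902, Lce1l without any 1 of 4, from 0.0527 to 0.0593, and Lce1j without LC-DTA vehicle sample 3 (0.0551).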

How the results depend on the processing

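No called value of a member changed direction under any alternative run. Of 125 called member values, 88 stayed called in every alternative and 37 were lost in at least 1; over all alternatives, called values were kept 3183 times and lost 181 times. Leaving out each sample in turn gave 26 to 34 members called for croton oil in LC-DTR (34 in the full fit), 25 to 26 in LC-DTA (26), 16 to 23 between genotypes under vehicle (19), 33 to 39 between genotypes after croton oil (38), and 4 to 14 for the difference of responses (8). That last count moved most: it was 14 without LC-DTR vehicle sample 2, 5 without LC-DTA vehicle sample 1, 4 without LC-DTA vehicle sample 2, 5 without LC-DTA vehicle sample 3 and 5 without LC-DTA croton oil sample 2. It was also 5 with no filter on low values, 15 relative to keratinocyte reference genes, and 4 without LC-DTR croton oil samples 2 and 3; the cause was not tested. The last of these left 26 members called between genotypes after croton oil, 6 higher and 20 lower.

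Scaling moved the median of all genes by -0.11 between genotypes under vehicle (median ratio and quantile), and the keratinocyte reference moved it by 0.13 and -0.14 for croton oil in LC-DTR and LC-DTA, by 0.17 and -0.11 between genotypes under vehicle and after croton oil, and by -0.28 for the difference of responses.

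With the replicate block the counts were 30, 25, 18, 36 and 8. Of 19 same-number pairs 17 correlated at or below 0.1, and 0 of 12 samples correlated best with their own number. These values gave no sign of pairing by number, and with groups this small they cannot exclude a shared day or handling. TPM keep no depth, so no limit of detection can be given for members near 0.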
